A study of Oryzias latipes with 2 samples.

Results

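Somatotropes are the pituitary cells that make growth hormone, and they were taken here as the cells that carry this name in the deposited annotation. There were 52 of them among 2592 cells in females and 127 among 3804 cells in males, 179 of 6396 in all, and in each sex they formed 1 cluster. The study dissociated the pituitaries of adult medaka (*Oryzias latipes*), a small freshwater teleost, to describe their hormone-producing cell types by single-cell RNA sequencing (scRNA-seq). The female library pooled 24 pituitaries and the male library 23, from fish of about 8 months with the genotype d-rR lhb:GFP, in which the promoter of *lhb* (luteinizing hormone beta subunit) drives the fluorescent protein GFP, so that every cell comes from a transgenic fish and no library without the transgene was used here. Each sex is 1 library made from pooled animals, without replicates. For that reason no test was made, sex and library cannot be told apart, and intervals cover counting error only. Cells of 1 library are not replicates, and in pooled levels fewer transcripts per cell and fewer expressing cells are only separated where values per cell are given.

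Growth hormone, encoded by *gh*, promotes body growth and liver production of insulin-like growth factor, and in teleosts it also takes part in the adaptation to seawater. It belongs to the same hormone family as prolactin, made by lactotropes, and somatolactin, a fish hormone made by somatolactotropes. Somatotropes, lactotropes, somatolactotropes and thyrotropes are commonly grouped as one lineage of the anterior pituitary.

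When red blood cells were left out, somatotropes made up 2.34% of 2221 female cells (exact Clopper-Pearson 95% interval 1.75 to 3.06) and 3.91% of 3245 male cells (3.27 to 4.64). Their depth was a median of 5951 unique molecular identifiers (UMIs, each one counted molecule) per cell in females, between 2342 and 28134, and a median of 6611 in males, between 1607 and 38085. Of the cell barcodes, 16 occurred in both libraries, and 0 of these marked somatotropes in both.

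The gene *gh* (ENSORLG00000019556) took up 23.7% of all somatotrope UMIs in females and 27.2% in males. The pooled level was 2370 UMIs per 10000 (exact Poisson 95% interval 2355 to 2385) in female somatotropes, against 30.7 in female lactotropes. In males it was 2720 per 10000 (2710 to 2730) in somatotropes, against 22.5 in lactotropes. The pooled lactotrope values include 2 female and 1 male cells above 500 per 10000. The median over lactotropes was 4.88 in females and 7.70 in males. A total of 93555 female and 278675 male *gh* UMIs stand behind the somatotrope values. The next most abundant gene, ENSORLG00000007614, reached 133 per 10000 in female and 145 per 10000 in male somatotropes, so that *gh* stood alone at the top in both libraries.

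The pooled level hid 2 sets of cells. In females the *gh* level of the 52 somatotropes ran between 0 and 6234 per 10000, with a median of 1762, and in males that of the 127 somatotropes ran between 0 and 6691, with a median of 2142. In both sexes most cells lay above 500 per 10000, few lay just under it, and most of a second set lay at the level found in cells of other types. Under 500 per 10000, called little-*gh* here, were 13 of 52 female somatotropes, or 25% (exact Clopper-Pearson 95% interval 14.03 to 38.9), and 40 of 127 male somatotropes, or 31.5% (23.5 to 40.3). Between 250 and 1000 per 10000 lay 3 female and 4 male cells. The cells next to the cut were at 184 and 716 per 10000 in females, and at 413 and 648 per 10000 in males.

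**Figure D1:**
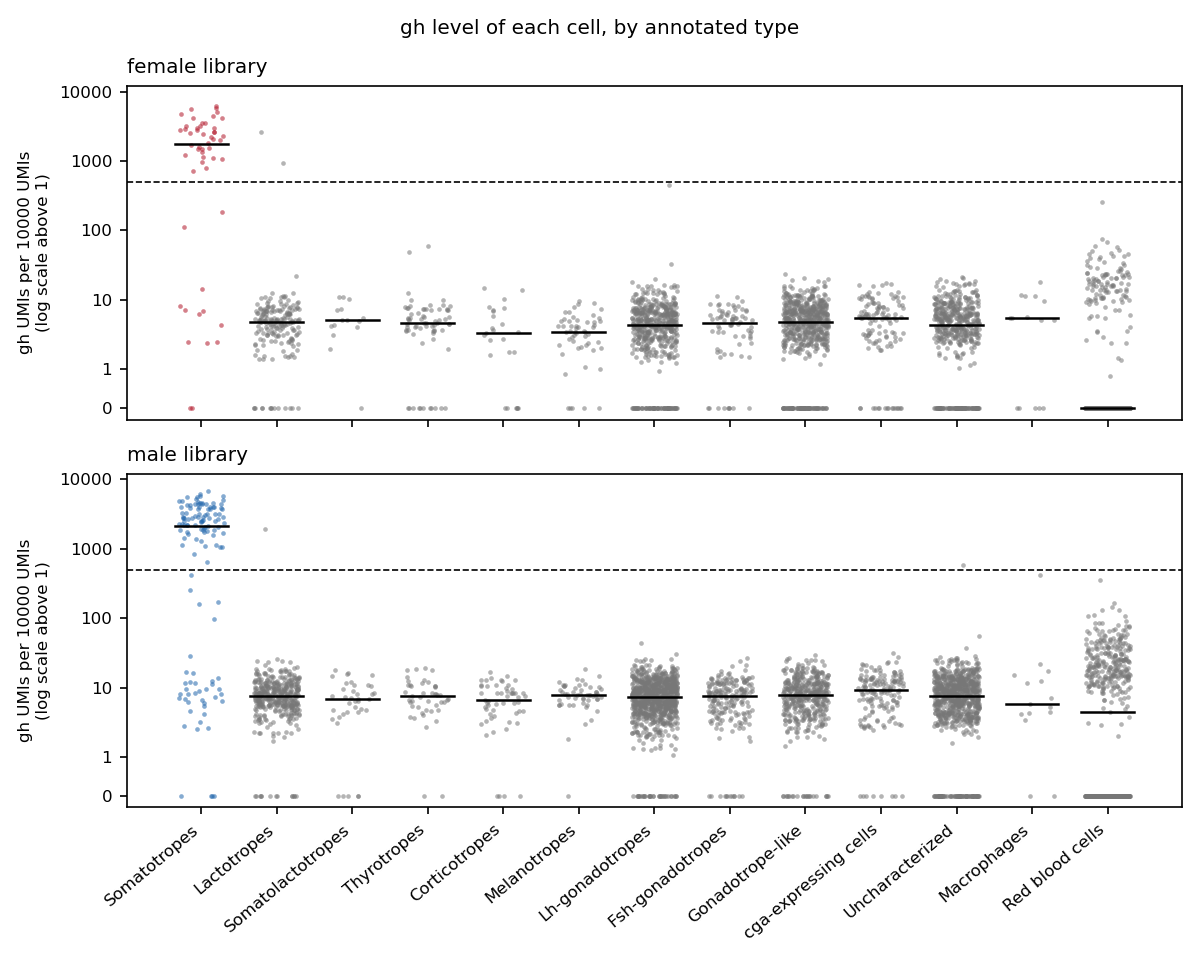
Level of *gh* in each cell in UMIs per 10000 UMIs (vertical axis, logarithmic above 1), by annotated type, with the female library above and the male library below; black bars are medians and the dashed line marks 500. Somatotropes fall into a high set and a low set, and the low set of 13 female and 40 male cells overlaps the other types, whose medians lie under 10.

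Most of the low set lay at the *gh* level of other cell types. In little-*gh* somatotropes the median was 6.35 *gh* UMIs per 10000 in females and 8.04 in males, against 4.60 and 7.57 in all other types without red blood cells. Of the other types, 85.9% of cells in females and 93.9% in males had at least 1 *gh* UMI, at median depths of 4081 and 3742 UMIs. When each cell was thinned to 2200 UMIs, 53.8% of the 13 little-*gh* cells in females had a *gh* UMI, against 66.0% of other cells, and in males 84.6% of 39 little-*gh* cells, against 82.2% of other cells. Of the little-*gh* cells, 11 in females and 34 in males lay at or under the 99th percentile of the other types (17.6 and 24.7 per 10000). The other 2 female and 6 male cells lay above it, the highest at 184 and 413 per 10000, and with them the pooled level of the class was 29.5 in females and 42.2 in males.

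The deposited files also split the UMIs into those of exons, of introns and of a class named spanning, which data of this kind use for reads that overlap both. In gh-rich somatotropes, spanning UMIs made up 29.6% of the *gh* UMIs in females (95% interval 29.3 to 29.9) and 17.7% in males (17.5 to 17.8). In the 11 female and 34 male somatotropes at or under the 99th percentile of other types, cells picked by their *gh* level, they made up 4.17% of 24 UMIs in females (0.105 to 21.1) and 4.21% of 95 UMIs in males (1.16 to 10.4). Cells of other types under the same limit had 5.55% (4.95 to 6.20) in females and 5.87% (5.46 to 6.29) in males. The intervals of these 11 and 34 cells held the share of the other cell types and lay under the share of gh-rich somatotropes in both libraries. The female share rests on 1 spanning UMI, and whether the spanning share changes with the *gh* level of a cell was not tested. In the whole little-*gh* class, with the cells above that limit, the share was 21.6% in females and 13.6% in males. Conversely, 2 female lactotropes, 1 male lactotrope and 1 male uncharacterized cell were above 500 per 10000, and their *gh* UMIs were 30.2% spanning in females and 17.7% in males.

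Besides *gh*, 2 named genes were at least 2-fold higher in somatotropes than in every other type with 20 or more cells in both libraries. These were *nptna* (ENSORLG00000004965), whose name is that of the cell adhesion protein neuroplastin, and *abhd15a* (ENSORLG00000030040), named after an abhydrolase domain. The rule was met by 16 of 551 tested genes in females (2.9%) and by 20 of 1349 in males (1.48%), and 10 of 550 genes tested in both libraries met it in both. The other 7 have no name in the tables used here. Since these cells were clustered on the same counts, the ratios are a description of the cluster.

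The gene *nptna* had 14.9 UMIs per 10000 in female somatotropes, against 0.407 in lactotropes and 2.96 in the gonadotrope-like cells, the next highest type with 20 or more cells. In male somatotropes it had 13.1 per 10000, against 0.261 in lactotropes and 2.38 in somatolactotropes, the next highest. It was found in 51 of 52 female somatotropes and 124 of 127 male ones. Thinned to 2200 UMIs per cell, 98.1% of 52 female somatotropes and 88% of 125 male ones still had it, against 5.49% of 182 lactotropes in females and 4.51% of 377 in males. Over all other types without red blood cells the thinned shares were 31.7% in females and 21.2% in males.

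The gene *abhd15a* had 8.03 UMIs per 10000 in female somatotropes, against 0.276 in lactotropes and 1.12 in thyrotropes, the next highest type with 20 or more cells. In male somatotropes it had 9.75 per 10000, against 0.273 in lactotropes and 1.15 in gonadotrope-like cells. After thinning, 78.8% of female and 84.8% of male somatotropes had the gene, against 3.85% and 5.04% of lactotropes. Of the unnamed genes, ENSORLG00000024587 was 8.01 and 7.96 times its level in the next highest type in females and males, with 64 and 162 UMIs in somatotropes and 2 and 1 UMIs in lactotropes. For ENSORLG00000023775 the ratios were 5.41 in females and 8.73 in males.

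The gene *sncga* (ENSORLG00000002687), which encodes a gamma-synuclein, was also found in other types. Its level was 9.14 per 10000 in female somatotropes, against 4.15 in lactotropes and 4.59 in thyrotropes. In male somatotropes it was 8.07 per 10000, against 3.04 in lactotropes, 3.31 in thyrotropes and 6.49 in somatolactotropes. In Fsh-gonadotropes, Lh-gonadotropes, melanotropes and corticotropes it was at or under 0.809 per 10000 in both sexes. The female somatolactotropes, 15 cells, had 2 UMIs in all, and the gh-rich somatotropes alone had 5.99 per 10000 in females and 5.87 in males.

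**Figure D2:**
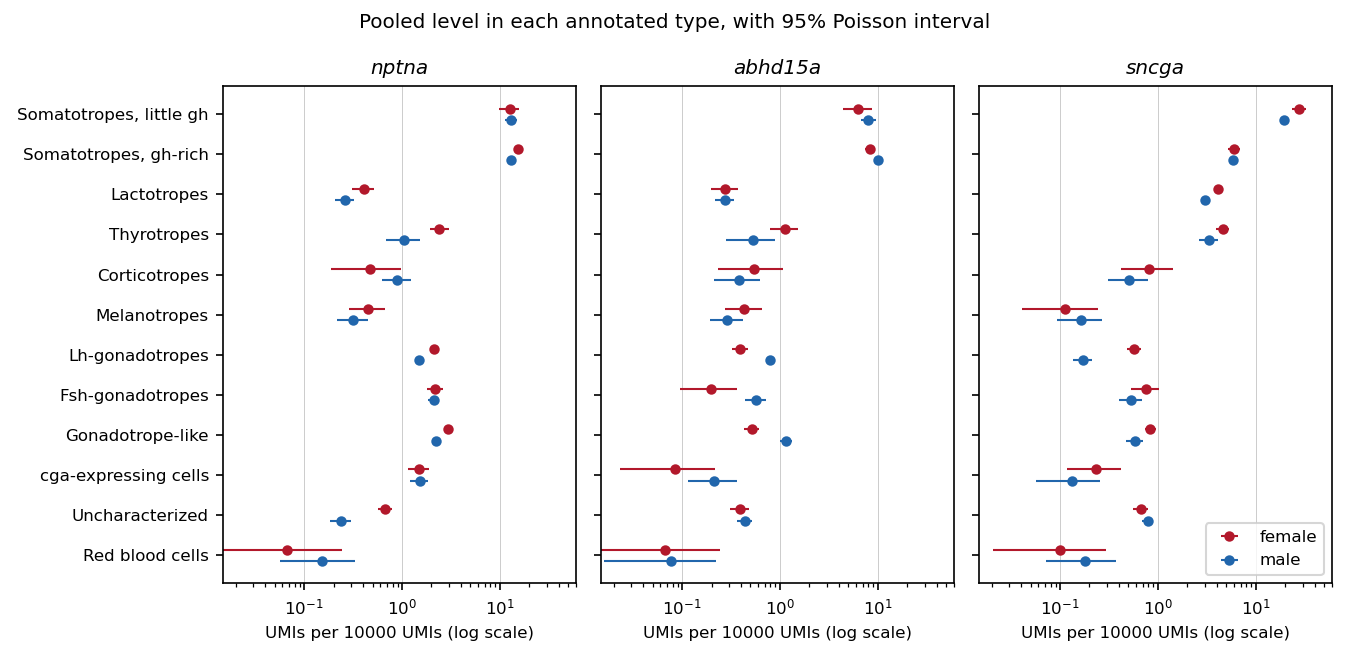
Pooled levels of *nptna*, *abhd15a* and *sncga* in UMIs per 10000 UMIs (horizontal axes, logarithmic) in somatotropes with little *gh*, in gh-rich somatotropes and in the other annotated types with 20 or more cells in both libraries; bars are exact Poisson 95% intervals. Both somatotrope classes lie far above the other types for *nptna* and *abhd15a*, whereas *sncga* is higher in the little-*gh* cells (27.7 per 10000 in females and 19.5 in males) than in any other group shown.

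Set against lactotropes, the hormone genes separated the types, and most of the genes called were on the lower side. Of 3278 genes tested in females, 90 were at least 2-fold higher in somatotropes (2.75%) and 678 were at least 2-fold lower (20.7%). Of 6023 genes tested in males, 153 were higher (2.54%) and 1841 lower (30.6%). The counting interval of the ratio included 1 for 46 of the lower genes in females and 41 in males, and for 0 of the higher genes. Genes entered on the UMIs of both types together. Lactotropes gave 1524362 UMIs in females and 3298905 in males, against 394800 and 1024667 in somatotropes. Genes high in lactotropes thus passed this limit more easily, and the balance of higher and lower calls cannot be told apart from that effect. The median log2 ratio of all tested genes was -0.37 in females and -0.60 in males. When the ratios were taken relative to these medians, 225 genes were higher and 465 lower in females, and 434 were higher and 913 lower in males. Over 3276 genes tested in both libraries, 58 were higher in both and 520 lower in both. Among these genes the 58 were 64.4% of the higher calls in females and 65.2% of those in males, and the 520 were 76.7% and 60.7% of the lower calls. The log2 ratios of the libraries had a Pearson r of 0.84 across genes, which are not independent.

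Of the named genes, 12 of 48 tested in females and 13 of 54 in males were higher in somatotropes. For *gh* the ratio was 77.2 in females (95% counting interval 74.9 to 79.5) and 121 in males (118 to 124). Its lactotrope side includes female lactotropes at 940 and 2649 *gh* per 10000 and a male one at 1901, which the intervals do not cover. Over the alternatives its log2 value lay between 6.27 and 8.61 in females and between 6.90 and 8.08 in males. For *nptna* the ratio was 36.7 (28.2 to 48.5) and 50.2 (40.4 to 63.2), and for *abhd15a* 29.1 (21.1 to 41.2) and 35.7 (28.8 to 44.8). Smaller ratios were found for *qpct*, a glutaminyl-peptide cyclotransferase that caps the amino end of peptides with pyroglutamate, at 4.16 (3.15 to 5.49) in females and 3.71 (3.02 to 4.57) in males. For *sncga* they were 2.21 (1.93 to 2.51) and 2.65 (2.42 to 2.91), and they fell under 2-fold in both sexes when the little-*gh* cells were left out. For *cabp5a*, a calcium-binding protein gene, they were 2.95 and 2.57, although its level in somatotropes, 15.3 and 6.71 per 10000, was far under that of the *cga*-expressing cells, 311 and 282 per 10000. The *cabp5a* ratio was under 2-fold in 1 of 11 alternatives in females, at a log2 value of 0.72 without the cells rich in another type's marker, and in 3 of 12 in males, the lowest at 0.51 without cells above the 95th percentile of UMIs. In females 1 cell held 27.3% of the somatotrope *cabp5a* UMIs. The ribosomal protein gene *rpl7* lay 1.84 and 1.82 times higher in somatotropes, under the 2-fold limit in both sexes.

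Named genes that were lower in somatotropes numbered 16 in females and 16 in males. Prolactin (*prl*, ENSORLG00000016928) was at 56.8 UMIs per 10000 in female somatotropes, against 2475 in lactotropes, and at 24.4 per 10000 in male somatotropes, against 1945 in lactotropes. The calcium sensor secretagogin, *scgn*, had 0.380 per 10000 in female somatotropes, against 7.72 in lactotropes, and 0.283 in male somatotropes, against 7.19 in lactotropes. The argininosuccinate lyase gene *asl* was 0.04 (0.02 to 0.06) times its lactotrope level in females and 0.03 (0.02 to 0.04) times in males. Apolipoprotein E (*apoeb*) was 0.0908 times the lactotrope level in females and 0.0738 times in males. Of the 2 genes named *HSPA2 (1 of many)*, members of the heat shock protein 70 family, ENSORLG00000026984 was at 0.122 times the lactotrope level in females and 0.0526 times in males, and ENSORLG00000028255 at 0.113 and 0.0721 times. Further low ratios were found for *mala*, with 10 female and 22 male UMIs in somatotropes, against 1019 and 2848 in lactotropes, and for *spaca4l*, with 2 and 3 UMIs, against 408 and 846. The genes *scgn* and *HSPA2 (1 of many)* are among the authors' markers of lactotropes, and *asl* and *apoeb* among those of uncharacterized cells, and these markers were chosen on these libraries.

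**Figure D3:**
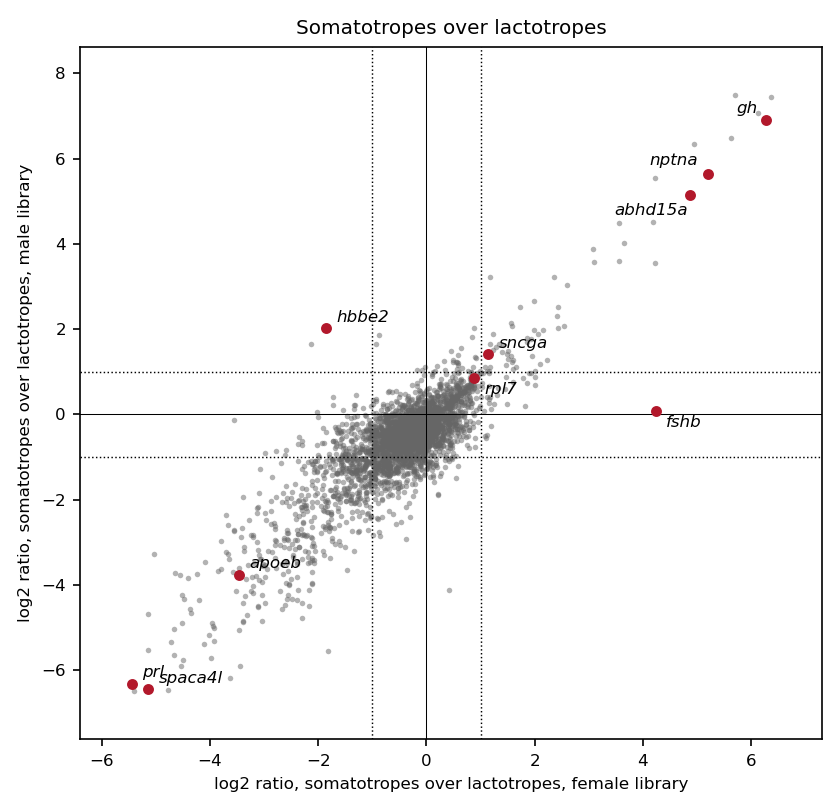
Log2 ratio of somatotropes over lactotropes in the female library (horizontal axis) and the male library (vertical axis), with 1 point for each of 3276 genes tested in both; dotted lines mark 2-fold. Most genes lie along the diagonal, with *gh*, *nptna* and *abhd15a* at one end and *prl* at the other, whereas *fshb* and *hbbe2* lie off it.

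For 2 of the genes away from the diagonal most UMIs came from single cells. In females *fshb*, the follicle-stimulating hormone beta subunit, was at 87.8 per 10000 in somatotropes, against 4.64 in lactotropes, but 90.4% of its 3467 somatotrope UMIs came from 1 cell, and without that cell its level was 9.08. The same cell held 60.9% of the somatotrope UMIs of *cga*, the common alpha subunit of the glycoprotein hormones. In males the haemoglobin gene *hbbe2* was at 13.3 per 10000 in somatotropes, against 3.26 in lactotropes, and 1 cell gave 73.7% of its UMIs. Without that cell its level was 3.55 per 10000. Altogether 3 female and 6 male somatotropes held at least 500 per 10000 of a marker of another type. In females these were 1 cell each for *prl*, for *fshb* with *cga*, and for GFP. In males *prl* and *cga* marked 1 cell each, GFP 2 and the red blood cell genes 2, of which 1 was a little-*gh* cell. The share of doublets among them was not tested, and the study removed the cells with the highest doublet scores before deposit.

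The deposited marker list of the male library, whose genes were chosen on these cells, was read in both libraries. All 5 somatotrope markers (*gh*, *nptna*, *sncga*, *abhd15a* and ENSORLG00000022615) were at least 2-fold higher in somatotropes than in lactotropes in both sexes, and all 6 lactotrope markers were at least 2-fold lower. The 5 red blood cell markers summed to 2.94 per 10000 in female and 47.1 in male somatotropes, with a median over cells of 2.27 and 2.47. The 5 macrophage markers summed to 1.32 and 1.09 per 10000, against 682 and 423 in macrophages. The 5 thyrotrope markers summed to 3.04 and 3.26, against 458 and 732 in thyrotropes. The 5 Lh-gonadotrope markers summed to 186 in female and 159 in male somatotropes, against 93.5 and 99.04 in lactotropes. Of these markers, 2 in females and 1 in males were at least 2-fold higher. Their median over cells was 58.7 and 82.3 in somatotropes, against 66.9 and 90.8 in lactotropes and 2228 and 3655 in Lh-gonadotropes. The 5 Fsh-gonadotrope markers summed to 96.5 and 6.24 in somatotropes, against 9.69 and 5.29 in lactotropes, with 3 and 0 at least 2-fold higher. Their median over cells was 7.17 and 4.51 in somatotropes, against 7.54 and 4.33 in lactotropes. In female somatotropes 2 of the 5 macrophage markers and 2 of the 5 corticotrope markers had 0 UMIs, while in males 0 and 1 of them did.

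The little-*gh* cells held *nptna* and *abhd15a* and had more *sncga*. Since *gh* fills so much of the gh-rich cells, levels in this comparison are given per 10000 UMIs other than *gh*, unless stated. The little-*gh* cells were shallower, with a median of 4206 UMIs, against 7193 in gh-rich cells, in females, and of 3776, against 8371, in males. The gap remained when *gh* was left out, at 4203, against 5685, in females, and 3774, against 5609, in males. They also had fewer genes, with a median of 1288, against 1464, in females and of 1181, against 1469, in males. The part of depth in the values that follow was looked at only by thinning each cell to 2200 UMIs. These UMIs included *gh*, so that gh-rich cells kept fewer UMIs of other genes than little-*gh* cells.

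In little-*gh* cells *nptna* had 12.6 UMIs per 10000, against 21.2 in gh-rich cells, in females, and 13.0, against 19.4, in males. The ratios were 0.594 (95% counting interval 0.458 to 0.761) and 0.670 (0.576 to 0.776). Per 10000 of all UMIs the same values were 12.6, against 15.3, in females and 12.9, against 13.1, in males, so that the size of the difference depends on whether *gh* is counted. Thinned to 2200 UMIs the log2 ratio, per 10000 UMIs other than *gh*, was -1.20 in females and -1.03 in males, past 2-fold, against -0.75 and -0.58 without thinning. As a mean over cells it was -1.22 in females and -0.80 in males. Without cells above the 95th percentile of UMIs it was -1.08 and -0.74, so that both settings passed 2-fold in females only. Over single cells *nptna* ranged between 0 and 26.4, with a median of 12.4, in the 13 female little-*gh* cells and between 3.78 and 144, with a median of 21.3, in the 39 gh-rich cells. In males the range was 0 to 68.5, with a median of 10.8, in the 40 little-*gh* cells and 0 to 172, with a median of 18.74, in the 87 gh-rich cells. The classes overlapped widely. At least 1 *nptna* UMI was found in 12 of 13 female and 38 of 40 male little-*gh* cells, against 18.2% and 15.4% of lactotropes, whose median depths were 6447 and 5763 UMIs. Lactotropes are low among the types. The gene was found in 71.0% of female and 57.9% of male gonadotrope-like cells, and in 70.8% and 65.7% of Fsh-gonadotropes. Among somatolactotropes it was found in 11 of 15 female cells (73.3%) and 18 of 38 male cells (47.4%). After thinning, 92.3% of female and 79.5% of male little-*gh* cells had it, against 50% and 43.0% of gonadotrope-like cells. The thinned shares of somatolactotropes were 50% of 14 female and 35.5% of 31 male cells.

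For *abhd15a* the little-*gh* cells had 6.30 per 10000, against 11.5 in gh-rich cells, in females (ratio 0.547, 0.376 to 0.776), and 8.02, against 14.9, in males (ratio 0.538, 0.444 to 0.646). At least 1 UMI was found in 9 of 13 female and 35 of 40 male little-*gh* cells, against 37 of 39 and 87 of 87 gh-rich cells. Thinned to 2200 UMIs, the shares were 69.2% of 13 little-*gh* cells, against 82.1% of 39 gh-rich cells, in females (95% intervals 38.6 to 90.9 and 66.5 to 92.5), and 76.9% of 39, against 88.4% of 86, in males (60.7 to 88.9 and 79.7 to 94.3). These intervals overlapped in both sexes, but at 2200 UMIs with *gh* included the classes were not matched in UMIs other than *gh*. As with *nptna*, the log2 ratio of *abhd15a* levels passed 2-fold after thinning, at -1.26 in females and -1.53 in males. It also passed 2-fold as a mean over cells, at -1.24 and -1.32, and without cells above the 95th percentile of UMIs, at -1.11 and -1.15. With *gh* kept in the total it was -0.41 and -0.34.

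The gene *sncga* went the other way. Little-*gh* cells had 27.8 per 10000, against 8.27 in gh-rich cells, in females, and 19.6, against 8.67, in males. The ratios were 3.36 (95% counting interval 2.71 to 4.16) and 2.26 (1.96 to 2.61). Over single cells it ranged between 2.07 and 63.6, with a median of 19.2, in female little-*gh* cells, and between 0 and 28.8, with a median of 8.32, in gh-rich cells. In males it ranged between 2.07 and 53.1, with a median of 18.66, in little-*gh* cells, and between 0 and 51.5, with a median of 7.07, in gh-rich cells. The ranges overlapped, and 10 of 13 female and 33 of 40 male little-*gh* cells lay above the median of the gh-rich cells. Without cells above the 95th percentile of UMIs the log2 ratio was 1.32 in females and 0.96 in males, the male value just under 2-fold. Within the gh-rich cells *sncga* and *gh* showed no trend over cells (Spearman rho -0.08 over 39 female and 0.05 over 87 male cells, which share a library).

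**Figure D4:**
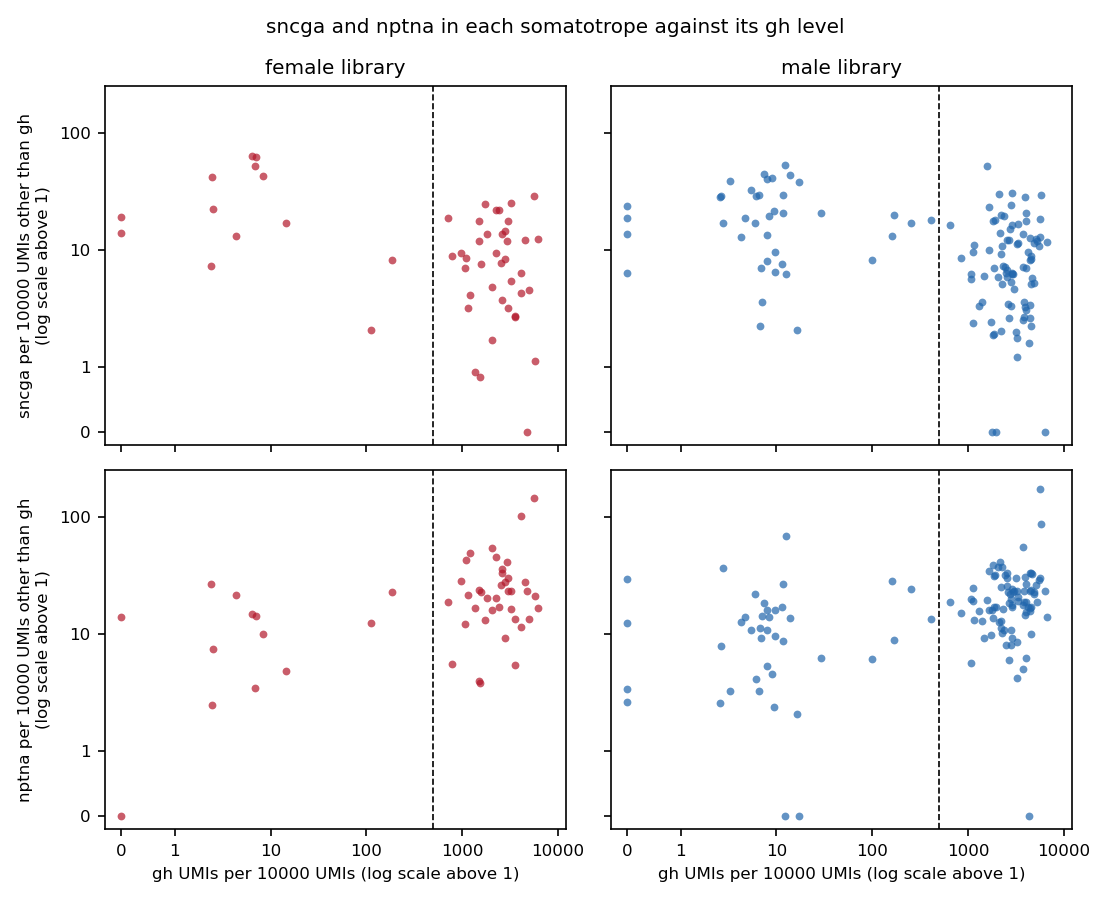
Level of *sncga* (upper panels) and *nptna* (lower panels) in each somatotrope per 10000 UMIs other than *gh*, against its *gh* level per 10000 UMIs, with the female library on the left and the male library on the right; all axes are logarithmic above 1 and the dashed line marks 500. Little-*gh* cells, left of the line, reach as high for *sncga* as any gh-rich cell, with medians of 19.2 and 18.66, and all but 1 female and 2 male cells hold *nptna*.

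Across all genes, 551 were tested in females, of which 19 were at least 2-fold higher in little-*gh* cells (3.45%) and 52, *gh* among them, at least 2-fold lower (9.44%). In males 1349 were tested, of which 45 were higher (3.34%) and 114 lower, again with *gh* (8.45%). The counting interval included 1 for 5 of the lower genes in females and 4 in males, and for 0 of the higher genes. Genes entered on the UMIs of both classes together, and gh-rich cells gave 337499 of all 394800 UMIs in females and 859309 of 1024667 in males. Genes high in gh-rich cells thus passed this limit more easily. Higher genes were 26.8% of those called in females and 28.3% in males, against 45.1% and 36.6% at a limit of 20 UMIs. The balance of higher and lower calls therefore depends on the limit. Since *gh* defined the classes, it was left out of the counts over both libraries. Of the 549 other genes tested in both, 6 were higher in both and 27 lower in both, and the log2 ratios had a Pearson r of 0.65 and a Spearman rho of 0.57 across genes, which are not independent. Among these genes the 6 were 31.6% of the higher calls in females and 66.7% of those in males, and the 27 were 54% and 67.5% of the lower calls. With *gh* kept in the total the split turned round, to 69 higher and 31 lower in females and 251 higher and 64 lower in males, and 32 genes were then higher and 18, *gh* included, lower in both. Of the 6, *sncga* was the only one with a name. The unnamed ENSORLG00000014167 had ratios of 4.16 (2.97 to 5.82) in females and 4.13 (3.31 to 5.17) in males, and ENSORLG00000018365 had 2.53 and 2.80. Little-*gh* cells of males also had more *trmt6*, a tRNA methyltransferase subunit gene that the authors list as a somatolactotrope marker, at 2.85, against 0.430 per 10000, a ratio of 6.64 (4.003 to 11.3). In females *trmt6* had 37 UMIs in all, under the 50 needed for a call, at 2.98, against 0.819 per 10000.

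Somatolactin itself (*sl*, ENSORLG00000013460) was not among the differences. It had 1.57 per 10000 of all UMIs in little-*gh* cells of females and 1.03 in those of males, with 9 and 17 UMIs, against 1.54 and 0.908 in gh-rich cells. The 5 deposited somatolactotrope markers, which include *sl*, *trmt6* and *sncga*, summed to 47.8 per 10000 in little-*gh* cells, against 17.5 in gh-rich cells, in females, and to 35.6, against 18.5, in males. In both sexes most of the gap between these pooled sums was that of *sncga*, which is also a deposited somatotrope marker. The pooled sums thus largely repeat the *sncga* difference given above. The median over cells of the 5 markers together was 61.6, against 15.4, in females and 29.8, against 14.2, in males. The part of these markers in the differences between the classes was not tested. Somatolactotropes had a pooled marker sum of 3166 in females and 1169 in males, but the median over their cells was 2813 in females and 60.3 in males. Of the other hormone genes, *prl* had a median over cells of 10.8 in female and 16.9 in male little-*gh* cells, and *pomca*, the precursor of adrenocorticotropin and melanocyte-stimulating hormone, 13.2 and 21.4. The highest *prl* level in any little-*gh* cell was 21.7 per 10000 in females and 45.2 in males, and the highest *lhb* level 14.5 and 31.1. No little-*gh* cell reached 500 per 10000 of any of the 6 other hormone genes.

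The 27 genes lower in both included 11 named genes, and for several of these the pooled difference rested on few gh-rich cells. Pooled, the *cga* level in little-*gh* cells was 20.7 per 10000, against 168 in gh-rich cells, in females, and 22.7, against 72.6, in males. That of *cabp5a* was 2.63, against 24.2, in females and 2.31, against 11.2, in males. The *lhb* level was 7.88, against 20.1, and 14.3, against 42.3, and GFP, driven by the *lhb* promoter, was at 21.2, against 85.2, and 45.5, against 125. The level of *apoeb* was 1.93, against 12.2, and 4.07, against 20.8, and that of *nr5a1b*, a nuclear receptor gene of the steroidogenic factor kind, 0.700, against 3.52, and 0.304, against 1.46. Prolactin was at 12.4, against 88.9, in females and 18.5, against 37.7, in males, where 1 gh-rich cell held 78.1% and 36.1% of the somatotrope UMIs, and without the cells rich in a marker of another type its log2 ratios were -0.56 and -0.32. As medians over cells per 10000 of all UMIs, *cga* was at 19.2 in little-*gh* cells, against 22.1 in gh-rich cells, in females and at 20.5, against 17.7, in males. The median of *lhb* was 6.97, against 8.08, in females and 14.01, against 13.02, in males, and that of *apoeb* 2.02, against 3.33, and 3.83, against 3.08. For GFP it was 22.2, against 19.9, in females and 47.99, against 36.5, in males. On this scale, where *gh* takes up part of the total in gh-rich cells, the male medians of these 4 genes and the female median of GFP were higher in little-*gh* cells. Without the cells rich in a marker of another type the log2 ratio was -1.50 in females and -0.77 in males for GFP, and -1.49 and -0.95 for *lhb*, so that the male values no longer passed 2-fold. Without cells above the 95th percentile of UMIs the log2 ratio of *cga* in females was -0.61, in place of -3.03, and that of *lhb* -0.59, in place of -1.35. In gh-rich cells the UMIs of such genes were unevenly spread: 1 cell held over 25% of the somatotrope UMIs of 12 of the 27 genes in females and of 2 in males. When such genes were left out, 15 were lower in both.

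The ribosomal gene *rpl7* differed little, at 101, against 90.8 per 10000, in females (ratio 1.11, 1.01 to 1.22) and 116, against 106, in males (1.09, 1.04 to 1.15). Of the genes that lead in somatotropes, ENSORLG00000023775 had ratios of 1.03 and 1.12, whereas ENSORLG00000024587 had 0 of 64 UMIs in little-*gh* cells of females and 14 of 162 in those of males, a male ratio of 0.334 (0.178 to 0.578). ENSORLG00000022638, which thyrotropes held at a like level, was at 0.250 (0.143 to 0.407) and 0.254 (0.190 to 0.334). The genes high in somatotropes thus differed among themselves between the classes.

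**Figure D5:**
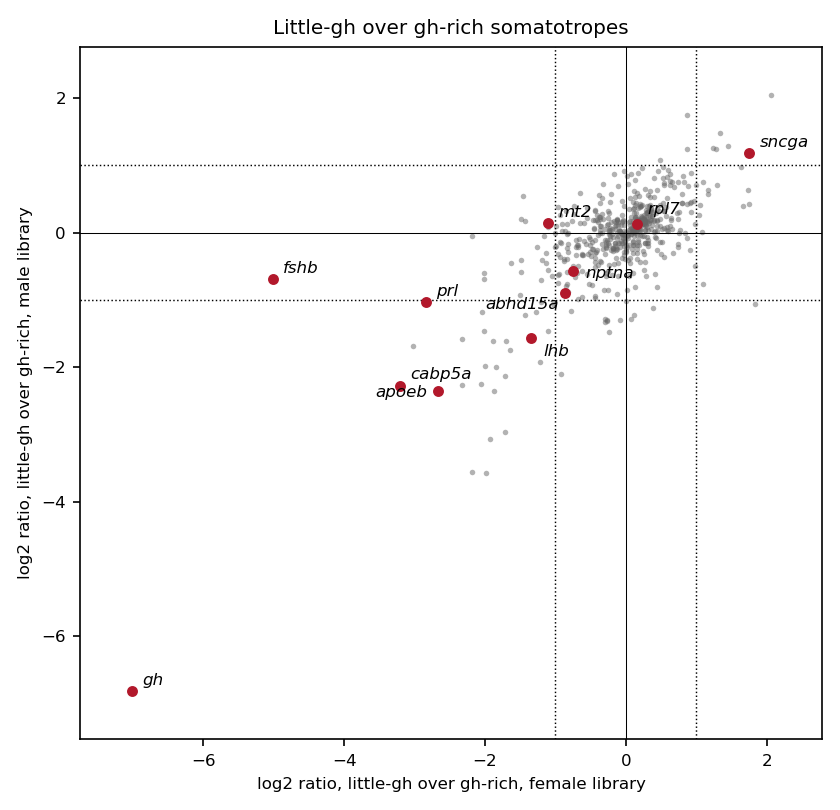
Log2 ratio of little-*gh* over gh-rich somatotropes per 10000 UMIs other than *gh*, in the female library (horizontal axis) and the male library (vertical axis), with 1 point for each of 550 genes; dotted lines mark 2-fold. *sncga* lies in the upper right with 5 unnamed genes, *gh* and 27 other genes lie in the lower left, and *nptna*, *abhd15a* and *rpl7* lie within 2-fold in both libraries. These are pooled ratios without thinning, and *nptna* and *abhd15a* passed 2-fold in some other settings.

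Across genes the little-*gh* profile had its highest correlation with the gh-rich somatotropes, by a small margin in males. This is no independent check of the label, since both classes belong to 1 cluster made from the same counts, and the genes were those with 50 UMIs in somatotropes, most of whose cells are gh-rich. Over 544 genes with at least 50 somatotrope UMIs in females, the 7 hormone genes left out, log2(level + 0.1) of little-*gh* cells had a Pearson r of 0.92 with gh-rich cells, 0.85 with thyrotropes, 0.80 with somatolactotropes and 0.79 with lactotropes. Over 1342 genes in males it was 0.91 with gh-rich cells, 0.89 with somatolactotropes, 0.83 with thyrotropes and 0.76 with lactotropes. The somatolactotropes are 15 female and 38 male cells, and types share the depth and the background of their library.

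The UMIs from introns were a smaller part of the total in somatotropes than in lactotropes. They made up 9.41% of exon, intron and spanning UMIs in female somatotropes, against 15.01% in lactotropes, and 8.17% in male somatotropes, against 16.0% in lactotropes. In little-*gh* cells the share was 11.4%, against 9.08% in gh-rich cells, in females, and 10.2%, against 7.77%, in males. With the 7 hormone genes left out it was 12.5% in female somatotropes, against 19.3% in lactotropes, and 11.2% in male ones, against 19.4%. On this count lactotropes had the highest share of any type, so the gap is not particular to somatotropes. All other types together, without red blood cells, had 13.9% in females and 13.4% in males, and Lh-gonadotropes had 11.1% and 9.49%. Without the hormone genes the classes stood the other way, at 11.5% in little-*gh* cells, against 12.8% in gh-rich cells, in females and 10.3%, against 11.5%, in males. The intron files count UMIs that the total matrix does not hold, with 3908 genes in females and 4156 in males having more intron than total UMIs, so these shares serve only to set types side by side.

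Between the libraries few genes of somatotropes passed 2-fold. Of 1935 genes tested, 40 were at least 2-fold higher in female than in male somatotropes (2.07%) and 32 at least 2-fold lower (1.65%), with a median log2 ratio of 0.08. The counting interval included 1 for 1 of the lower genes and 0 of the higher ones. In lactotropes 46 of 6579 genes were higher (0.699%) and 158 lower (2.4%), and in all other types without red blood cells 304 of 11399 were higher (2.67%) and 106 lower (0.93%). The ratio for *gh* was 0.871 in somatotropes (95% counting interval 0.865 to 0.878), 1.37 in lactotropes alone and 0.782 in all the other types together. The lactotrope ratio includes the 2 female and 1 male lactotropes above 500 per 10000. Medians over lactotropes went the other way, at 4.88 in females and 7.70 in males. In gh-rich cells alone *gh* was at 2767 per 10000 in females and 3235 in males. The ratio for *nptna* was 1.14 (1.03 to 1.26), for *abhd15a* 0.824 (0.724 to 0.935) and for *sncga* 1.13 (0.998 to 1.28). In lactotropes and in the other types these ratios were 1.56 and 1.59 for *nptna*, 1.01 and 0.691 for *abhd15a*, and 1.36 and 1.18 for *sncga*. With 1 library per sex the spread between fish is unknown, and such differences cannot be set against it.

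Of 41 named genes tested, 10 were at least 2-fold higher in female somatotropes and 6 lower. The gene ENSORLG00000028255, named *HSPA2 (1 of many)*, was at 10.8 per 10000 in females, against 3.72 in males, a ratio of 2.92 (2.53 to 3.36), while its ratio was 1.86 in lactotropes and 1.21 in the other types. The second gene of this name, ENSORLG00000026984, was at 3.47 per 10000 in females, against 0.761 in males, a ratio of 4.56 (3.43 to 6.10), with 1.97 in lactotropes and 1.34 in the other types. The metallothionein gene *mt2*, which binds metal ions, was at 19.1 per 10000 in females, against 6.25 in males, a ratio of 3.05 (2.74 to 3.40). Its ratio was 1.35 in lactotropes and 1.61 in the other types, and 29.2% of its female somatotrope UMIs came from 1 cell. The aromatase gene *cyp19b*, which makes oestrogens, had a ratio of 2.65 (1.75 to 4.01) from 50 female and 49 male UMIs, with 48.0% of the female UMIs in 1 cell. The ratios of *fshb* (28.6), *cga* (2.39) and *prl* (2.33) include the single cells described above, and without cells above the 95th percentile of UMIs they were 2.16, 0.736 and 0.715. At the other end *hbbe2* had a ratio of 0.05 (0.03 to 0.07), *hemoglobin* 0.0575 and *gb* 0.062, each with most of its male UMIs in 1 cell. They stayed past 2-fold in 11 of 11 alternatives each, with weakest log2 ratios of -1.60, -1.34 and -1.60. Their ratios were 0.728, 0.345 and 0.411 in lactotropes and 0.878, 0.617 and 0.599 in the other types.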

How the data were processed

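Pituitary cells of both sexes went through the Chromium platform of 10x Genomics (3′ chemistry, version 2). Per the labels and the files, the authors provide unnormalised UMI counts for each gene and cell, the same split into exon, intron and spanning counts, and a cluster and type for each cell. The submitters' processing notes name Cell Ranger and Seurat. No source used here gives the genome build. The study took out its highest-scoring doublets, and no doublet caller was run here. Average expression and adjusted p-values in the deposited marker tables are the authors' own comparisons and were not used.

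UMIs were summed over the cells of a type. Intervals (95%) are exact Poisson for levels, Clopper-Pearson for shares and conditional for ratios. Genes needed 50 UMIs in both groups together (leading and little-*gh* comparisons, 50 in somatotropes) and were called at 2-fold, with groups under 3 UMIs set to 3. No p-value was computed. Genes to name were the hormones and *cga*, list members, the leading and most abundant genes and the extreme ratios, among 63 identifiers with a name. Of 413 listed symbols 11 were matched, so lists of receptors, calcium signalling, hormone processing, the endoplasmic reticulum and stress could not be read. *rpl7*, *trmt6*, *mt2*, unnamed identifiers and the deposited marker lists were chosen after their values were seen, and members and lists with earlier results of these data known. Code was tested on simulated data (Python 3.11.15, numpy 2.4.6, scipy 1.17.1, pandas 2.3.3).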

Additional observations from a re-analysis of the deposited data

Results flagged for a closer look

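In 3 genes the ratio passed 2-fold in opposite directions in the 2 libraries, a difference that was not tested. For *hbbe2* the ratio of somatotropes over lactotropes was 0.277 in females and 4.09 in males, where 73.7% of the somatotrope UMIs came from 1 cell. For ENSORLG00000017221, one of the authors' red blood cell markers, it was 0.227 in females and 3.15 in males, where 1 cell held 44.4% of the UMIs. For ENSORLG00000014931 the ratio of little-*gh* over gh-rich somatotropes was 3.54 in females and 0.479 in males, where the highest cell held 21.4% and 12.7% of the UMIs.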

How the results depend on the processing

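Each sex is 1 library of pooled fish, so leaving out a replicate was not possible, and spread between fish, dissociations or libraries cannot be seen. No paired analysis was possible because the groups hold 1 library each. Depth limits genes under 50 UMIs. Little-*gh* cells number 13 and 40, and single cells decide the levels of hormones of other types.

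The *gh* level of somatotropes per 10000, in females and males, was 2020 and 2120 as a mean over cells, 2169 and 2675 from exon counts, 2020 and 2141 after thinning to 2200 UMIs, 2767 and 3235 without little-*gh* cells, and 1962 and 2240 without cells above the 95th percentile of UMIs. Without cells at or above 500 per 10000 of another marker, an alternative chosen after seeing the data like all those on the little-*gh* comparison, it was 2539 and 2802. The intron share was 12.5% and 11.2% without the 7 hormone genes, 9.90% and 8.62% as a median over cells, 9.08% and 7.77% without little-*gh* cells, and 2.58% and 2.15% without genes with more intron than total UMIs (added after seeing the data). The male share of somatotropes was 2.68% when only gh-rich cells were counted. The share of little-*gh* cells lay between 21.2% and 30.8% in females and between 26.8% and 37.7% in males.

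Against lactotropes, the genes higher and lower in females were 257 and 1343 at a minimum of 20 UMIs, 50 and 325 at 100 UMIs, and 46 and 364 at 3-fold. In males they were 282 and 2953, 86 and 1037, and 79 and 933. Thinning left 179 lower genes in females and 88 higher and 488 lower in males. Without cells above the 95th percentile 359 were lower in females and 1046 in males, and exon counts gave 429 lower in females. Scaling to the median ratio gave 225 higher in females, and 434 higher and 913 lower in males. Without genes with over 25% of their UMIs in 1 cell (added) 409 were lower in females. Leading genes in females were 29 at 20 UMIs, 10 at 100 UMIs and 8 after thinning, and 12 after thinning in males. Between female and male somatotropes, genes higher and lower were 246 and 190 at 20 UMIs, 17 and 12 at 100 UMIs, 5 and 10 at 3-fold, 13 and 7 after thinning, and 26 and 13 without genes of 1 cell. Exon counts gave 21 lower, and 25 were higher without cells above the 95th percentile.

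In little-*gh* cells, the genes higher and lower in females were 92 and 112 at 20 UMIs, 7 and 25 at 100 UMIs, 69 and 31 with *gh* in the total, and 12 and 17 after thinning. In males they were 189 and 327, 14 and 56, 251 and 64, and 18 and 39. Without cells above the 95th percentile 20 were lower in females and 61 in males, and without genes of 1 cell 33 in females.

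The 87 ratios of named genes past 2-fold were taken again under up to 12 alternatives each. Of the 957 values this gave, 894 stayed past 2-fold the same way, and the alternatives share most of their counts. Reversed log2 ratios of male somatotropes over lactotropes, without cells above the 95th percentile and without cells rich in another marker, were -0.56 and -0.46 for *gb*, -0.78 and -0.68 for *hbbe2*, -1.62 and -1.36 for *hemoglobin* and -2.18 and -1.61 for *si:ch211-103n10.5*. Those of females over males were -0.48 and -0.33 for *prl* and, without cells above the 95th percentile, -0.44 for *cga*. With the *gh* cut at 1000, the log2 ratio of *prl* in female little-*gh* over gh-rich cells was 3.64. The cell with 78.1% of the female somatotrope *prl* UMIs, at 788 *gh* per 10000, then counted as little-*gh*. Other causes of these shifts were not tested.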
